A study of Mus musculus with 8 samples.

Results

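The genes described here encode the nuclear part of oxidative phosphorylation. They were chosen by name as every protein-coding gene of mouse chromosomes 1 to 19 whose symbol begins with *Nduf*, *Uqcr*, *Atp5*, *Cox4i*, *Cox5*, *Cox6*, *Cox7* or *Cox8*, or is *Sdha*, *Sdhb*, *Sdhc*, *Sdhd* or *Cyc1*. In the annotation of GRCm38.p6, the assembly also called mm10, 94 of 20665 protein-coding genes on these chromosomes met the rule. Of the 94, 37 encode subunits of complex I, 8 assembly factors of complex I (*Ndufaf*), 2 members of the NDUFA4 family, 4 complex II, 9 complex III, 17 complex IV and 17 complex V. The rule uses gene symbols and chromosomes only.

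Chromatin was profiled by Cut & Tag, in which an antibody brings a transposase to its target so that the DNA beside it is cut and sequenced. The cells were BAC, brown preadipocytes isolated from newborn *Cars2* flox/flox mice, immortalized with SV40 large T antigen, infected with a retrovirus and differentiated in culture. The Vec cells received an empty virus and carry the genotype label WT, and the Cre cells received Cre recombinase and carry the label CarS2-KO. *Cars2* encodes the mitochondrial cysteinyl-tRNA synthetase. Both kinds of cell thus shared the origin from flox/flox mice, the large T antigen and the hygromycin selection. They are cultured lines, so the libraries of a group do not stand for separate animals. All 8 samples followed 1 differentiation scheme, with insulin at 20 nM and the thyroid hormone T3 at 1 nM throughout, and with IBMX, dexamethasone and indomethacin added for the first 2 days. Each sample held 50000 cells. There were 2 libraries for each of 4 groups, H3K27ac Vec, H3K27ac Cre, EBF2 Vec and EBF2 Cre, and the authors deposited 1 list of peaks per library. H3K27ac marks active promoters and enhancers, and EBF2 is a transcription factor of the brown adipocyte lineage.

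Oxidative phosphorylation couples the transfer of electrons to the synthesis of ATP in the inner mitochondrial membrane. Complexes I and II pass electrons from NADH and succinate to ubiquinone, complex III passes them on to cytochrome c and complex IV to oxygen, while complex V uses the resulting proton gradient to make ATP. In brown adipocytes UCP1 lets the protons return without ATP synthesis, so that respiration yields heat. Complexes I, III, IV and V also hold subunits made inside mitochondria from mitochondrial DNA, which need charged mitochondrial tRNAs, whereas the genes counted here are transcribed in the nucleus.

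The lists were short. The H3K27ac lists held between 646 and 902 peaks and the EBF2 lists between 533 and 724, each reaching a few percent of all genes, and depth is unknown, as the lists gave peaks without read counts. A gene without a listed peak is therefore a gene at which no peak was called, and nothing follows for its acetylation. None of 14 brown adipocyte markers, *Ucp1*, *Pparg* and *Fabp4* among them, had a peak within 10 kb in any of the 8 lists. Nor had any of 22 markers of macrophages, endothelial cells and skeletal muscle. Of all autosomal protein-coding genes 7.72% had one, so the lists could not check the labelled cell type. The paper reports by Cut & Tag that EBF2 binding at *Ucp1* was lower in Cre than in Vec cells, a site that these lists lack. Inside the EBF2 Cre replicate 1 list the peaks are named Cars2AKO, and inside EBF2 Vec replicate 1 WT, and both libraries were grouped by their labels. In the study AKO is the name of the mouse with an adiponectin-Cre knockout of *Cars2*, and only the label puts EBF2 Cre replicate 1 among the BAC libraries. That list held a peak within 10 kb of 0 of the 94 genes, beside 4.06% of all genes. It held a peak within 100 kb of 4 of the 94, or 4.26%, beside 6.71% of all genes. Without this list the difference in EBF2 between Cre and Vec within 10 kb, given further on as 0.5, was 1.

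H3K27ac peaks were listed at the ends of a few oxidative phosphorylation genes, and EBF2 peaks at none. Over the 8 lists, 6 of the 94 genes had a peak within 3 kb of either end of the gene, or 6.38%, beside 6.47% of all autosomal protein-coding genes. When a peak inside the gene or up to 10 kb from it counted, the number was 8, or 8.51%, beside 7.72% of all genes. Over all peaks, the share of the 94 genes was thus near that of all genes in both windows. With peaks of 10 kb or less alone, the same number of the 94 genes, 6 or 6.38%, had a peak at an end, beside 2.98% of all genes. The 8 genes were *Ndufb3*, *Ndufb1*, *Ndufc1*, *Ndufaf5*, *Atp5l*, *Atp5pb*, *Atp5j* and *Ndufa4*. The other 86 genes had no peak within 10 kb in any list. Among them were all 4 of complex II, all 9 of complex III and all 17 counted as complex IV, which leaves out *Ndufa4*.

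The sequences upstream of the 5 genes whose H3K27ac peak covered the 5′ end are shown, as 6 of the 8 H3K27ac peaks at the 94 genes lay there. They are from the RefSeq promoter table of GRCm38.p6, written 5′ to 3′ on the strand of the gene up to the base before its annotated 5′ end, and only bases outside the annotated extent of every gene are given. For *Ndufaf5* a further 62 bases lie between the printed stretch and the start listed in the promoter table. Except for *Atp5l*, each runs from the edge of the neighbouring gene. Capitals mark matches to motifs named further on. The stretches are chr1:58586334-58586396 on the plus strand for *Ndufb3*, chr2:140170559-140170583 on the plus strand for *Ndufaf5*, chr3:105959264-105959497 on the minus strand for *Atp5pb*, chr9:44920743-44920992 on the minus strand for *Atp5l* and chr12:101975739-101975758 on the minus strand for *Ndufb1*.
Ndufb3: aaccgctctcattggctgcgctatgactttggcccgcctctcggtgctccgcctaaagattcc
Ndufaf5: actcccacaatcctccgcgagacgc
Atp5pb: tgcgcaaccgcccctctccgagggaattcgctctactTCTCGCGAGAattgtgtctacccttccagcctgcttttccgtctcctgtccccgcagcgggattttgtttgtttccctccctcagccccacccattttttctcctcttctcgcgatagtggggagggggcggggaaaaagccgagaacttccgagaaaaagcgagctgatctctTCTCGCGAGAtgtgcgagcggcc
Atp5l: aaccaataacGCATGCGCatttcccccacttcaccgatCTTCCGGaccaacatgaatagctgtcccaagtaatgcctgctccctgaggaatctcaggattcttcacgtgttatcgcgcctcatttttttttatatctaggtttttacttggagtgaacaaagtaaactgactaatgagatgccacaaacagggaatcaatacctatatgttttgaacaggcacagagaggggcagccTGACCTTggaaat
Ndufb1: tggcgcggcgagtggcagct

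The first comparison asked how many of the genes carried H3K27ac at an end in Vec and in Cre. In Vec replicate 1, 3 genes had a peak within 3 kb of an end, or 3.19% of the 94, beside 4.98% of all genes. In Vec replicate 2 the count was 0, beside 3.95% of all genes. In Cre replicate 1 the count was also 0, beside 4.13%, and in Cre replicate 2 it was 4, or 4.26%, beside 5.16%. The Vec and Cre values therefore overlapped, with 1 library at 0 and 1 library above 0 in each group. Vec averaged 1.5 ± 2.12 genes (SD, n = 2), Cre averaged 2 ± 2.83 (SD, n = 2), and the difference of 0.5 was smaller than the spread between replicates (two-sided exact permutation test over libraries, p = 1). The difference reversed to -1 without Vec replicate 2 and to -1.5 without Cre replicate 2. With 2 libraries against 2 this exact test cannot give a p below 0.333.

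**Figure D1:**
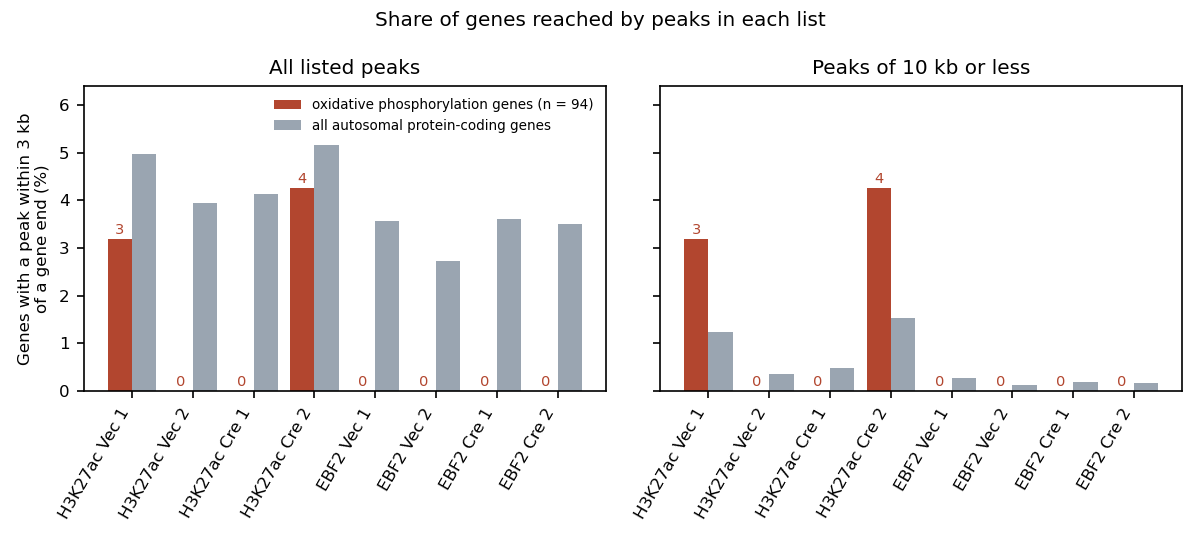
Percentage of genes with a peak within 3 kb of a gene end in each list, for the 94 oxidative phosphorylation genes (red, number of genes above the bar) and all 20665 autosomal protein-coding genes (grey), with all peaks at left and peaks of 10 kb or less at right. Red bars stand only at H3K27ac Vec replicate 1 and Cre replicate 2, where they are below grey at left and above grey at right.

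The wider window gave the same order. Inside the gene or up to 10 kb from it, 3 genes had an H3K27ac peak in Vec replicate 1 (5.79% of all genes), 0 in Vec replicate 2 (4.53% of all genes), 0 in Cre replicate 1 (4.77%) and 5 in Cre replicate 2 (6.2%). Vec averaged 1.5 ± 2.12 genes and Cre 2.5 ± 3.54 (SD, n = 2), a difference of 1 (exact permutation test, two-sided, p = 1). This difference reversed to -0.5 without Vec replicate 2 and to -1.5 without Cre replicate 2. Since Vec replicate 2 and Cre replicate 1 each held 0 of the 94 genes, none could have a peak at an end in each Vec list but in no Cre list, or the reverse. These patterns were seen at 0.0919% and 0.0968% of all genes.

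The lists that held these peaks were those with the most short peaks. On autosomes, Vec replicate 1 held 412 peaks of 10 kb or less and Cre replicate 2 held 503, whereas Vec replicate 2 held 232 and Cre replicate 1 held 297. The median width of these peaks was 1332 and 1135 bp in the first pair and 2820 and 2221 bp in the other. When only peaks of 10 kb or less were counted, the genes with a peak at an end were still 3, 0, 0 and 4 in Vec replicates 1 and 2 and Cre replicates 1 and 2, or 3.19%, 0%, 0% and 4.26% of the 94, beside 1.24%, 0.353%, 0.489% and 1.53% of all genes. The share of the 94 genes was thus above that of all genes in Vec replicate 1 and Cre replicate 2, and below it in the other H3K27ac lists, with no test made of these differences. No peak wider than 10 kb came within 3 kb of an end of any of the 94 genes. With equal numbers of best-scoring peaks per list, the H3K27ac difference between Cre and Vec at gene ends stayed 0.5. It was also 0.5 with peaks of at least the median score. What part the number of short peaks in a list had in the counts was not tested.

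The 8 H3K27ac peaks at the 94 genes were alike in shape. Their widths ran from 920 to 1125 bp, their folds over the background of the peak caller from 1.37 to 1.92, and their −log10 q-values from 1.89 to 13.54. Within their own lists they stood above 32.9% to 84.7% of peaks by score. Of the 8, 6 covered the 5′ end of the gene, and each had another protein-coding gene within 3 kb of the peak. Folds are regional means set by the authors' caller in each list and were not compared between lists.

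*Ndufaf5*, which encodes an arginine hydroxylase needed for the assembly of complex I, was the only one of the genes with a peak in 2 lists, 1 of Vec and 1 of Cre. The gene lies at chr2:140170584-140218965 on the plus strand. The peak of Vec replicate 1 spanned chr2:140169997-140170963, with a fold of 1.78 and a −log10 q-value of 6.25, and ranked 283 of 836 in its list. That of Cre replicate 2 spanned chr2:140170037-140171161, with a fold of 1.84 and a −log10 q-value of 3.39, and ranked 397 of 902. Both covered the 5′ end, and both also covered the start of *Esf1*, a nucleolar gene of pre-rRNA processing on the other strand. The nearest peak was 2250 kb away in Vec replicate 2 and 2260 kb away in Cre replicate 1.

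Of the complex I subunits, *Ndufb1* had the peak with the best rank. *Ndufb1* and *Ndufb3* encode accessory subunits of the membrane arm. At *Ndufb1*, chr12:101968096-101975738 on the minus strand, the peak of Cre replicate 2 spanned chr12:101975494-101976434, with a fold of 1.92 and a −log10 q-value of 13.54, rank 137 of 902. In the other 3 H3K27ac lists the nearest peak was 902, 1770 and 1790 kb away, in Vec replicates 1 and 2 and Cre replicate 1. The peak at *Ndufb1* also covered the start of *Cpsf2*, a subunit of the complex that cleaves the 3′ ends of mRNA precursors.

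At *Ndufb3*, chr1:58586397-58595964 on the plus strand, the peak of Vec replicate 1 spanned chr1:58585731-58586829. Its fold of 1.37 and −log10 q-value of 1.89 were the lowest of the 8 peaks, and it ranked 550 of 836. The neighbour on the other strand was *Fam126b*. The other 3 H3K27ac lists had their nearest peak between 64 and 74.3 kb away, and the EBF2 lists between 74.1 and 21100 kb.

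*Ndufc1*, another accessory subunit of complex I at chr3:51405479-51408955 on the minus strand, entered only the 10 kb window. The peak of Cre replicate 2, chr3:51415721-51416640, was 6766 bp from the gene and covered the start of *Naa15*, the auxiliary subunit of an N-terminal acetyltransferase. It had a fold of 1.69, and the nearest peak of each of the other 3 H3K27ac lists was 5520 kb from *Ndufc1*.

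Complex V contributed 3 genes, all encoding parts of the membrane sector or the peripheral stalk of ATP synthase. *Atp5l* encodes subunit g of the membrane sector. At *Atp5l*, chr9:44913248-44920742 on the minus strand, the peak of Vec replicate 1 spanned chr9:44920215-44921277, with a fold of 1.61 and a −log10 q-value of 10.57, rank 207 of 836. Its centre was 4 bp from the 5′ end. The other 3 H3K27ac lists had their nearest peak between 6190 and 7970 kb away. The nearby gene, *Ube4a*, lies upstream on the same strand and turns its 3′ end to *Atp5l*, so this was the only peak at a gene end that reached no second start in opposite orientation.

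*Atp5pb* and *Atp5j* encode subunits b and F6 of the peripheral stalk, and both had their peak in Cre replicate 2. At *Atp5pb*, chr3:105942698-105959263 on the minus strand, it spanned chr3:105958619-105959736, with a fold of 1.62 and a −log10 q-value of 4.66, rank 290 of 902. The neighbour was *Wdr77*, which encodes a partner of the arginine methyltransferase PRMT5. At *Atp5j*, chr16:84827871-84835857 on the minus strand, the peak spanned chr16:84834511-84835521, with a fold of 1.5 and a −log10 q-value of 2.67, rank 473 of 902. It began 336 bp inside the gene and covered the start listed at position 84834976, 1 of those that RefSeq gives for *Atp5j*. The same peak lay over the 5′ end of *Gabpa*, the ETS factor subunit of GABP (also named NRF2), which is known to bind promoters of many respiratory chain genes. In Vec replicate 1 the nearest peak was 1080 kb from *Atp5pb* and 6250 kb from *Atp5j*.

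**Figure D2:**
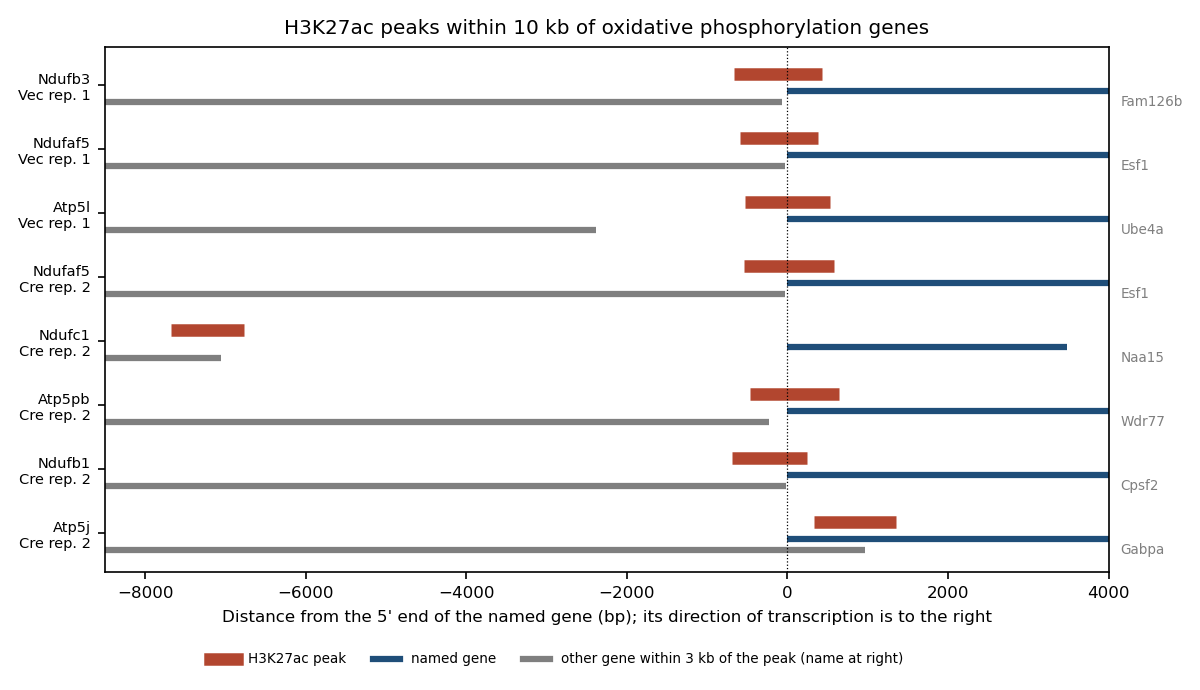
H3K27ac peaks (red) within 10 kb of the 94 genes, drawn in bp from the 5′ end of each gene (blue, transcribed to the right) with the other gene within 3 kb of the peak (grey, named at right), 1 row per gene and list. The peaks lie over the 5′ end in 6 of 8 rows, 336 bp inside *Atp5j* and 6766 bp upstream of *Ndufc1*.

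EBF2 peaks were listed within 3 kb of an end at 0 of the 94 genes in each of the 4 lists. The shares of all genes were 3.57% in Vec replicate 1, 2.73% in Vec replicate 2, 3.61% in Cre replicate 1 and 3.51% in Cre replicate 2. With peaks of 10 kb or less alone, these shares were only 0.266%, 0.131%, 0.198% and 0.179%. The count of 0 is thus no sign of an absence particular to the 94 genes. Within 10 kb the counts were 0 and 0 in Vec and 0 and 1 in Cre, where the last is 1.06% of the 94, beside 4.04%, 3.09%, 4.06% and 3.91% of all genes in the same order. At gene ends all 4 values were 0, so Cre and Vec could not be compared. Within 10 kb the difference was 0.5, where Cre had 0.5 ± 0.707 genes (SD, n = 2) and Vec 0 (exact permutation test, two-sided, p = 1). Over all libraries H3K27ac reached 1.75 ± 2.06 genes at their ends (SD, n = 4) and EBF2 0 (n = 4), and this difference was within the spread between the H3K27ac libraries (exact permutation test, two-sided, p = 0.429, smallest possible p 0.0286). It was 1 without H3K27ac Cre replicate 2. Each set of 4 pools Vec and Cre. H3K27ac was called as broad peaks and EBF2 as narrow peaks, so antibody and way of calling cannot be told apart here.

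The single gene with an EBF2 peak within 10 kb was *Ndufa4*, whose product was first assigned to complex I and is now known as a subunit of cytochrome c oxidase. The peak, in Cre replicate 2, spanned chr6:11846079-11891353, or 45275 bp, and ended 9019 bp beyond the 3′ end of the gene at chr6:11900372-11907450. Its fold was 8.09 and its −log10 q-value 44.47, rank 113 of 676. A wide peak overlapped the same region in all 8 lists, with widths from 24 to 45.7 kb. The nearest peak to *Ndufa4* was 10.8 and 20.1 kb away in H3K27ac Vec, 14.8 and 13.8 kb in H3K27ac Cre, 16.7 and 22.1 kb in EBF2 Vec and 18.5 and 9.02 kb in EBF2 Cre. The region was thus common to both antibodies and both cells, and only its edge placed *Ndufa4* in 1 list.

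Most of the 94 genes lay far from any listed peak. The median distance to the nearest one, over all 94, was 1.27 and 2.36 Mb in H3K27ac Vec and 2.25 and 1.26 Mb in H3K27ac Cre, beside 1.26, 2.29, 2.11 and 1.07 Mb over all genes. In the EBF2 lists it was 2.64 and 6.71 Mb in Vec and 3.52 and 3.84 Mb in Cre, beside 2.75, 4.92, 3.08 and 3.16 Mb. Peaks lay within 100 kb of 15 of the 94 genes in at least 1 list, or 16%, beside 15.8% of all genes, and of 79 in none. By list, 10, 3, 3 and 11 genes had a peak within 100 kb for H3K27ac, in the order Vec replicates 1 and 2 and Cre replicates 1 and 2, and 4, 3, 4 and 4 for EBF2. Their shares were 10.6%, 3.19%, 3.19% and 11.7% for H3K27ac, beside 11.1%, 8.03%, 8.35% and 12.7% of all genes, and 4.26%, 3.19%, 4.26% and 4.26% for EBF2, beside 7.04%, 5.25%, 6.71% and 6.37%. The share of the 94 genes was below that of all genes in each of the 8 lists, and no test was made of this.

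The genes with a peak within 100 kb in each of the 8 lists were *Ndufa4* and *Sdhc*, or 2.13% of the 94, beside 4.7% of all genes. *Sdhc* encodes a membrane anchor of complex II, and its nearest peak lay between 48.3 and 50.7 kb away in all 8 lists. In complex III the nearest H3K27ac peak was 89 kb from *Uqcrc1*, a core subunit, in Cre replicate 2, and the nearest EBF2 peak 51.1 kb from *Uqcrb*, a small subunit that helps to bind ubiquinone, in Cre replicate 1. In complex IV *Cox8c*, a testis isoform of subunit 8, had an H3K27ac peak 20.9 kb away in both Vec replicate 1 and Cre replicate 2, and no EBF2 peak came nearer to any of the 17 genes with a *Cox* symbol than 301 kb, the distance of *Cox6b1*.

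**Figure D3:**
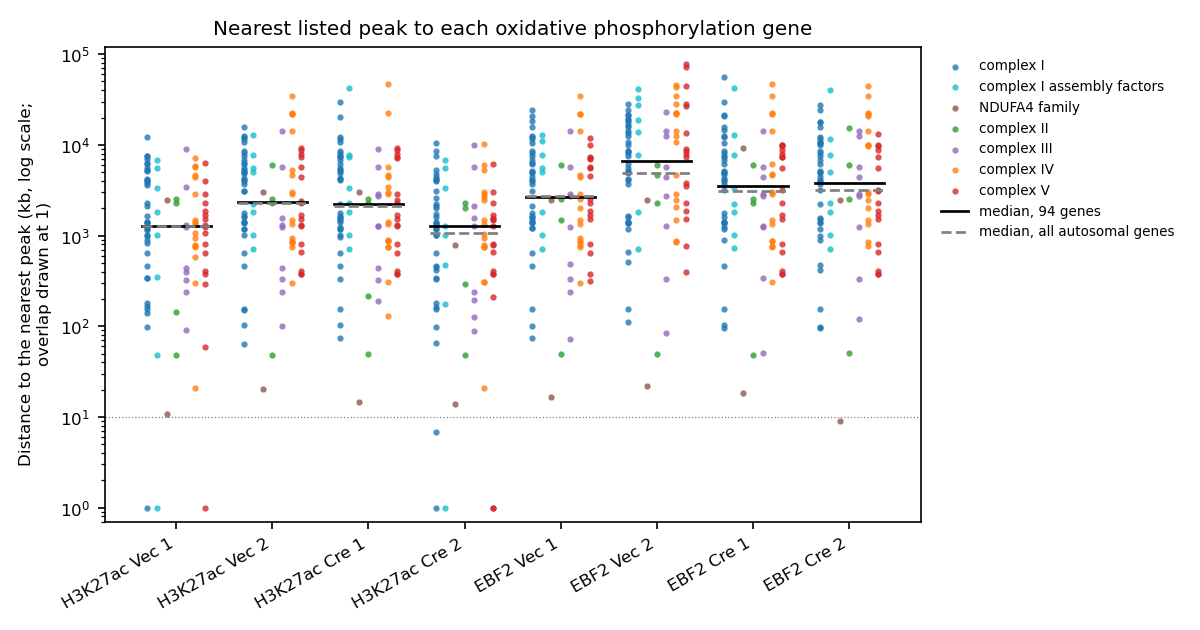
Distance in kb (log scale, overlap drawn at 1) from each of the 94 genes to the nearest peak of each list, coloured by complex, with the median of the 94 genes (black) and of all autosomal genes (dashed). The dotted line marks 10 kb, between 3 and 11 points of each list lie below 100 kb, and *Ndufa4* is the lowest point of each EBF2 list.

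Complex IV has isoforms of 3 subunits that are found in muscle and brown fat, *Cox6a2*, *Cox7a1* and *Cox8b*, beside the ubiquitous forms *Cox6a1*, *Cox7a2* and *Cox8a*. None had a peak within 10 kb in any list, beside 7.72% of all genes. *Cox7a1*, much used as a brown fat marker, had its nearest H3K27ac peak at 741 and 741 kb in Vec and 750 and 751 kb in Cre, and its nearest EBF2 peak between 741 and 2480 kb. *Cox7a2* had its nearest peak at 130 kb, in H3K27ac Cre replicate 1, and at 1480 or 1490 kb in the other 7 lists. For *Cox6a2* and *Cox8b* the nearest peak of any list was 1.4 and 0.782 Mb away, and for *Cox6a1* and *Cox8a* 4.38 and 0.758 Mb. With 3 genes in each set and a peak at none of them, these lists could not compare the muscle and brown fat forms with the ubiquitous ones.

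Genes of related pathways were counted in the same way, beside the 7.72% of all genes with a peak within 10 kb in any list. Of 40 further assembly factors and partners of the respiratory chain, 3, or 7.5%, had a peak within 10 kb in any list. *Cycs*, which encodes cytochrome c, had an H3K27ac peak at its 5′ end in Vec replicate 1 and Cre replicate 2, with folds of 1.53 and 1.66, and both peaks began at the same base, position 50566077 of chromosome 6. *Tmem126b* and *Foxred1*, assembly factors of complex I, had 1 in Cre replicate 2, with folds of 1.8 and 1.66. Of 19 genes of the citric acid cycle none had a peak. Of 19 genes of fatty acid oxidation 4 did, or 21.1%, namely *Etfdh*, which passes electrons from acyl-CoA dehydrogenases to ubiquinone, *Hadha* and *Hadhb*, which encode the trifunctional protein and share 1 peak between their starts, and *Echs1*, a hydratase.

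Of 18 regulators of respiratory chain genes 2 had a peak within 10 kb in any list, *Gabpa* and its partner *Gabpb1*, or 11.1%, beside 7.72% of all genes. The peak at *Gabpa* was the one already counted at *Atp5j*. These lists are small and were not tested against other genes. *Gabpb1* had a peak inside the gene, 8644 and 8633 bp from an end, in Vec replicate 1 and Cre replicate 2. The 10 peaks of these related genes were 931 to 1140 bp wide, and, as with the 8 H3K27ac peaks at the 94 genes, all were in Vec replicate 1 or Cre replicate 2 of H3K27ac. None of these related genes had an EBF2 peak within 10 kb. The shares of all genes were 4.04% and 3.09% in EBF2 Vec and 4.06% and 3.91% in EBF2 Cre, and no test was made. With peaks of 10 kb or less alone, they were 0.595%, 0.368%, 0.479% and 0.406% in the same order.

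The start sites of the genes with a peak were often shared with a neighbour. This comparison was chosen after the peaks had been seen. A head-to-head neighbour was taken as a gene on the other strand whose listed start lay at most 1000 bp upstream, or overlapped by up to 200 bp, and starts with their strand were available for 75 of the 94 genes and 16457 of 20665 genes. Of the 75 genes, 22 had one, or 29.3%, whereas 9.11% of all genes did. Their starts were 10 to 454 bp apart, with a median of 141 bp. The closest was *Ndufa7*, an accessory subunit of complex I, whose start was 10 bp from that of the ribosomal protein gene *Rps28*. *Ndufs3*, a core subunit of complex I, was 19 bp from *Kbtbd4*, *Sdhd*, a membrane anchor of complex II, 52 bp from *Timm8b*, and *Sdha*, the flavoprotein of complex II, 77 bp from *Ccdc127*.

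Of the 6 genes with an H3K27ac peak at an end, 5 had a head-to-head neighbour, or 83.3%, compared with 17 of the other 69, or 24.6%. The distances were 64 bp for *Ndufb3*, 88 bp for *Ndufaf5*, 148 bp for *Atp5j*, 235 bp for *Atp5pb* and 236 bp for *Ndufb1*. For *Atp5j* this was from the start at 84834976. The base composition and motif counts given below used its start at 84835625, which the peak did not cover. Over all genes, 118 of 453 genes with an H3K27ac peak of 10 kb or less at an end had such a neighbour, or 26%, and 8.63% of the rest. A peak over a shared start counts for both genes, so neither gene of a pair can be assigned the mark from these lists, and 17 genes with a head-to-head neighbour had no peak.

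**Figure D4:**
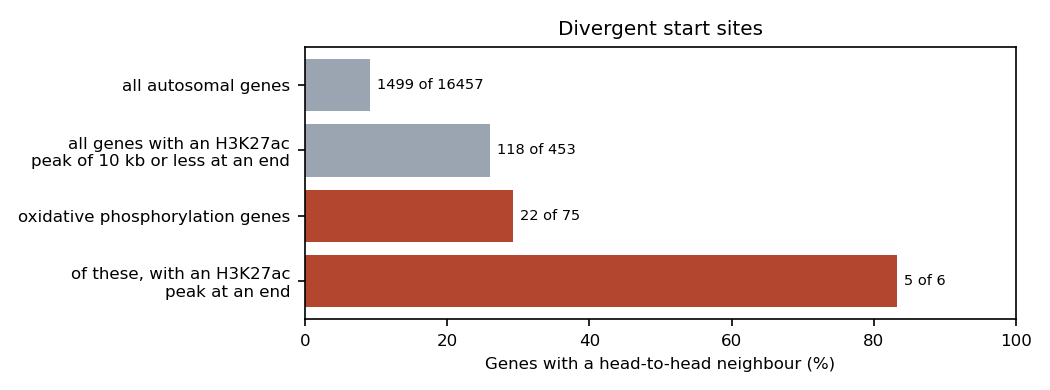
Percentage of genes with a head-to-head neighbour, with the counts beside the bars, for all autosomal genes and those with an H3K27ac peak of 10 kb or less at an end (grey), and for the oxidative phosphorylation genes and those of them with a peak (red). The bars run from 9.11% for all genes to 83.3% for the last set, which holds 6 genes.

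The base composition of the upstream sequence was also compared, over the 250 bases before the first listed start. The median GC content was 57.2% over the 75 genes and 59.4% over the 6 with an H3K27ac peak at an end, beside 55.6% over all genes and 59.2% over the genes with an H3K27ac peak of 10 kb or less at an end. The median number of CpG was 15 and 19, beside 10 and 16. *Atp5l*, the gene with no head-to-head start, had the lowest GC content of the 6, at 44%, with 7 CpG.

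Motif letters were searched on both strands of these 250 bases, as a description of the sequence that says nothing of binding. CCCNNGGG, the letters of the EBF motif, were found at 7 of the 75 genes, or 9.33%, and at 13.6% of all promoters of that length. GCGCATGC, for NRF1, a regulator of respiratory genes, was found at 9, or 12%, and at 3.03% of all. CCGGAAG, for ETS factors, was found at 13, or 17.3%, and at 9.38% of all. AAGGTCA, for the oestrogen-related receptors, was found at 5, or 6.67%, and at 3.59% of all, and AAGATGGCG, for YY1, at 0 and at 0.699% of all.

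In the sequences above, *Atp5l* held the NRF1, ETS and oestrogen-related receptor letters, all read on the opposite strand, at 240 to 233, 212 to 206 and 13 to 7 bases before the start. *Atp5pb* held CTCGCGAGA, at 197 to 188 and again at 23 to 14 bases before the start, where matches on both strands overlap. These letters were added to the search after the sequence had been seen, and were found at 2 of the 75 genes, or 2.67%, and at 0.814% of all promoters. At *Atp5j*, ahead of the start at 84834976, there were YY1 letters at 88 to 80 and ETS letters at 61 to 55 bases before the start, in a stretch that lies inside both annotated genes and is not printed. None of the other stretches shown held any of the letters searched.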

How the data were processed

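Cut & Tag was run on differentiated BAC, with 2 libraries each for H3K27ac Vec, H3K27ac Cre, EBF2 Vec and EBF2 Cre. Per the submitters' processing notes, bcl2fastq 2.17, Trimmomatic 0.33, HISAT2 2.2.1 and MACS2 2.2.7 were used with mm10. Peaks had been called per library, as broad peaks for H3K27ac and narrow peaks for EBF2. Filters, treatment of duplicate reads and any control library are not given in the sources used here. The authors deposited for each peak a score (10 times the −log10 q-value, as a whole number), a fold over background (a ratio), the −log10 p-value and q-value and, for EBF2, another column with the summit offset. A list without read counts gives no depth, and a weakly sequenced library lists fewer peaks.

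Distances were measured from each peak to the nearer end of a gene (within 3 kb) and to the gene itself (within 10 kb), with 0 for overlap, in the RefSeq annotation of GRCm38.p6. Counts per library were compared by two-sided exact permutation tests over libraries. The paper says in general that its cell culture experiments were repeated. Whether the Cut & Tag libraries of a group came from separate cultures is not given in the sources used here. The p-values therefore measure only the spread between these samples. Every gene with a peak in either window was named, as were the cytochrome c oxidase isoforms whatever their values, and genes of the other pathway lists with a peak, up to 10 a list. The members and lists were chosen with earlier results of these data known. The head-to-head comparison and the CTCGCGAGA letters were added after the data were seen. RefSeq promoter sequences matched 75 of the 94 genes by gene identifier.

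Alternatives were peaks with at least the median score (27 for H3K27ac and 29 for EBF2), the same number of best-scoring peaks per list (646 and 533), peaks of 10 kb or less, windows of 1 kb and 5 kb, the 5′ end only, chromosome X added, a replicate block, and leaving out each library in turn. Scripts were tested on simulated lists. Python 3.11.15, numpy 2.4.6, pandas 2.3.3 and matplotlib 3.10.9 were used.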

Additional observations from a re-analysis of the deposited data

How the results depend on the processing

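For the 4 results other than 0, 42 of 49 alternative values kept the direction. The replicate-block values among them repeat the main difference by construction. Exact tests of 2 libraries against 2 cannot go below p = 0.333, so keeping a direction there says nothing of significance. The other 3 results were 0, with no direction to keep. The difference between Cre and Vec in genes with H3K27ac at an end, 0.5 in the report, reversed to -1 without Vec replicate 2 and to -1.5 without Cre replicate 2, and ran from -1.5 to 2.5 over the 4 libraries left out in turn. Within 10 kb it was 1, reversed to -0.5 and -1.5 without the same libraries, and ran from -1.5 to 3.5. The difference between H3K27ac and EBF2 at gene ends, 1.75, ran from 1 without H3K27ac Cre replicate 2 to 2.33 without H3K27ac Vec replicate 2 or Cre replicate 1 (exact permutation p from 0.143 to 0.429). The EBF2 difference within 10 kb, 0.5, was 0 with peaks of 10 kb or less, 0 with a window of 5 kb, and from 0 to 1 when libraries were left out, with 0 without Cre replicate 2 and 1 without Cre replicate 1. The count of genes with H3K27ac at an end in each Vec list but in no Cre list ran from 0 to 2, with 2 without Vec replicate 2, and the opposite count from 0 to 3, with 3 without Cre replicate 1. With 1 list left in a group, these counts need a peak in that list only. No share of all genes is given for these reduced sets of lists. The counts of 2 and 3 therefore show nothing particular to the oxidative phosphorylation genes.

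With the replicate number as a replicate block the difference in H3K27ac at gene ends was 0.5, and with crossed numbers, added after the data were seen, it was again 0.5. With 2 pairs the exact sign-flip test allows no p below 0.5. As the groups are of equal size, a block leaves the difference of means unchanged whatever the pairing, so these values are no check of it. The deviations of same-numbered libraries correlated at -0.133 for H3K27ac and 0.0656 for EBF2 over 20665 genes, which gave little sign of pairing by number. The lists carry no depth, so a gene at which no peak was called may have a signal under the limit of the caller.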
